A study of Mus musculus with 12 samples.

Results

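The genes described here are those of cholesterol synthesis and of its control by SREBP and LXR, measured in mature white adipocytes of mouse epididymal fat (eWAs). A list of 29 gene symbols defined the set, and every row of the count table with one of these symbols was taken. The table holds 20295 genes, and 28 of the 29 symbols had a row. No row carried the symbol Hmgcs1, which was not analysed here. All 28 genes passed the filter on low counts and were tested among 13543 genes, with between 73 and 37083 counts per gene and library.

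The cells came from the epididymal fat of lean male C57/BL6J mice, whose age is not given in the sources used here. They were floated out of the digested tissue and kept for 2 days in a hydrogel at 50000 cells per well. The 4 groups, with 3 libraries each, were vehicle (labelled DMSO), ISO (the β-adrenergic agonist isoproterenol for 3 h), Lip (inhibitors of the lipases ATGL and HSL) and Lip+ISO (the inhibitors followed by the agonist). The labels name no allele or transgene, and all groups shared the isolation and the culture. The study's legend gives 3 independent biological experiments for these data. The labels do not tie a replicate number to an experiment, a mouse or a culture, so p-values measure the spread between these libraries.

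Cholesterol is built from acetyl-CoA through mevalonate, isoprenoid diphosphates, squalene and lanosterol. The transcription factors SREBP-1 and SREBP-2, encoded by Srebf1 and Srebf2, activate these genes. Their precursors sit in the endoplasmic reticulum with the escort protein SCAP, and INSIG proteins hold them there while sterols are plentiful. When sterols are scarce the precursors move to the Golgi, are cut by proteases and enter the nucleus. The liver X receptors (LXR, encoded by Nr1h2 and Nr1h3) bind oxysterols and activate genes of cholesterol export and of lipid synthesis, Srebf1 among them. Adipocytes hold large amounts of cholesterol in the lipid droplet and in membranes, and isoproterenol raises cAMP and starts the breakdown of stored triglyceride by the lipases.

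The promoter sequences of the genes whose response to ISO differed with the inhibitors, and of Insig1, which differed with the inhibitors alone, are shown to let their starts be compared. They come from RefSeq (assembly GRCm38.p6, a later build than the mm9 of the counts), which lists promoters for 23 of the 28 genes and not for Fdps, Fdft1, Sqle, Stard4 and Abcg1. Each line gives the 150 bases before a listed start, on the strand of the gene. Pmvk has 2 listed starts. Capitals mark matches on either strand to CCAAT (the NF-Y motif, which reads ATTGG on the other strand), to TGACG (the core of the cAMP response element, CRE) or to CACGTG (an E-box).
Abca1 (GRCm38.p6 chr4:53159896-53160045, minus strand): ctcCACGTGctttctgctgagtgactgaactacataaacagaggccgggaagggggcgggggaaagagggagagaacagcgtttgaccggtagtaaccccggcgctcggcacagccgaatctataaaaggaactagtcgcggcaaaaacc
Cyp51 (GRCm38.p6 chr5:4104698-4104847, minus strand): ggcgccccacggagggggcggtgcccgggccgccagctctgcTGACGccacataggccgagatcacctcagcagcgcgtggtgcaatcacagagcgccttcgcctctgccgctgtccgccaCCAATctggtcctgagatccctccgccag
Hsd17b7 (GRCm38.p6 chr1:169969206-169969355, minus strand): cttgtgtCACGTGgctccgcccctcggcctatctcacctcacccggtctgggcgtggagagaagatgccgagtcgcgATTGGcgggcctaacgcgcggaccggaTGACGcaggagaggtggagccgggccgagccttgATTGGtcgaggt
Insig1 (GRCm38.p6 chr5:28071262-28071411, plus strand): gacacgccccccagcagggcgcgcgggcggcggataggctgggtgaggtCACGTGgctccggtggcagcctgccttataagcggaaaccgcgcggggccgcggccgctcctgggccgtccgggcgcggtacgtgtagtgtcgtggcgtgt
Msmo1 (GRCm38.p6 chr8:64733579-64733728, minus strand): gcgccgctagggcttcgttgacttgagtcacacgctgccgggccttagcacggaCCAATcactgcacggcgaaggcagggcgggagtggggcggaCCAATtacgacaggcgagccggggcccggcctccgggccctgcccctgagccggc
Mvd (GRCm38.p6 chr8:122443423-122443572, minus strand): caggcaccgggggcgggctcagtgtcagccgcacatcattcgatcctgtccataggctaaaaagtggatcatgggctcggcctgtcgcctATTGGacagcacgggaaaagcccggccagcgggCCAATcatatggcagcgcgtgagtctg
Mvk (GRCm38.p6 chr5:114444119-114444268, plus strand): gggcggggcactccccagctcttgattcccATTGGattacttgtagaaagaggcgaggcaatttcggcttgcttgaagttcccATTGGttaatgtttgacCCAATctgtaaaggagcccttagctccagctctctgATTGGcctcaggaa
Pmvk, first listed start (GRCm38.p6 chr3:89454391-89454540, plus strand): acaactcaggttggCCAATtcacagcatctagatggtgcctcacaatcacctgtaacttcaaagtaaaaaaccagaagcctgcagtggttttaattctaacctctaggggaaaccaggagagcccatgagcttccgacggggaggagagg
Pmvk, other listed start (GRCm38.p6 chr3:89459421-89459570, plus strand): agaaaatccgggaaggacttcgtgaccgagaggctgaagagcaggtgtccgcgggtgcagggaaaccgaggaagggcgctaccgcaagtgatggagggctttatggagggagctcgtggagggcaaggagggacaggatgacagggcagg
Among these windows, that of Mvk held 4 matches to CCAAT, those of Hsd17b7, Msmo1 and Mvd 2 each, and that of Cyp51 and the first window of Pmvk 1 each. The windows of Hsd17b7 and Cyp51 also held 1 TGACG each, and those of Hsd17b7, Insig1 and Abca1 held 1 CACGTG. Over the 300 bases from 250 before to 50 after each start, CCAAT was present in 59.38% of the 32 promoters of the set, against 37.41% of all 32851 promoters in the table. CACGTG was present in 21.88% against 7.15%, and TGACG in 28.12% against 20.81%. The SREBP motif TCACNCCAC and the full CRE (TGACGTCA, which contains TGACG) were in 0 of the 32 promoters, and in 1.242% and 1.79% of all promoters. With shares this low, 0 of 32 cannot tell the set from all promoters. Only these exact letters were searched, so the search cannot show that SREBP sites are absent. These shares describe the letters in the windows, several promoters belong to the same gene, and no binding was measured.

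The 12 libraries held 22632220 to 43707557 counts. The 6 adipocyte markers (Adipoq, Plin1, Fabp4, Cidec, Retn and Lep) were detected in every group and summed to between 18676 and 29404 CPM, counts relative to the library total scaled by TMM factors of 0.924 to 1.07. Of these 6, Lep fell with ISO, both without and with the inhibitors. Markers of other cell types were detected too and are given with the LXR genes. The sterol-related genes together took 0.269 to 0.310% of the counts in vehicle, 0.281 to 0.287% in ISO, 0.236 to 0.248% in Lip and 0.331 to 0.369% in Lip+ISO. The ranges of Lip and Lip+ISO did not overlap with those of any other group. Such sums weigh abundant genes most and do not describe each gene. Mean Insig1 was 797 CPM in vehicle and 428 in Lip, and mean Pmvk was 39.5 in vehicle and 449 in Lip+ISO. In Lip against vehicle, 27 of the 28 genes passed no test, as given below. In bulk RNA, fewer cells expressing a gene and less RNA per cell cannot be told apart.

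Per kilobase of counted exon (RPKM, computed here from the scaled counts), Insig1 stood first in vehicle with a mean of 301 ± 38.6 RPKM (SD, n = 3). It was followed by Srebf1 at 73.2 ± 4.07, Nr1h3 at 68.2 ± 3.05 and Sc5d at 59.2 ± 5.37 RPKM, where the gap between Srebf1 and Nr1h3 was about the size of their SDs. Idi1 (1.24 ± 0.0996 RPKM), Mylip (3.45 ± 0.897) and Stard4 (5.92 ± 1.21) were the lowest. In Lip+ISO the order changed, with Pmvk at 377 ± 35.7, Insig1 at 268 ± 44.6 and Mvk at 110 ± 10.4 RPKM at the top.

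The study asked how much of the response of adipocytes to β-adrenergic stimulation passes through lipolysis. For the sterol-related genes this gives 4 comparisons of 2 groups and the interaction, which is the response to ISO with the inhibitors minus the response without them. A gene is said to rise or fall where it passed an adjusted p of 0.05 over all tested genes (edgeR quasi-likelihood F-test, two-sided, Benjamini-Hochberg). Of the 28 genes, 19 did so in at least 1 comparison.

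**Figure D1:**
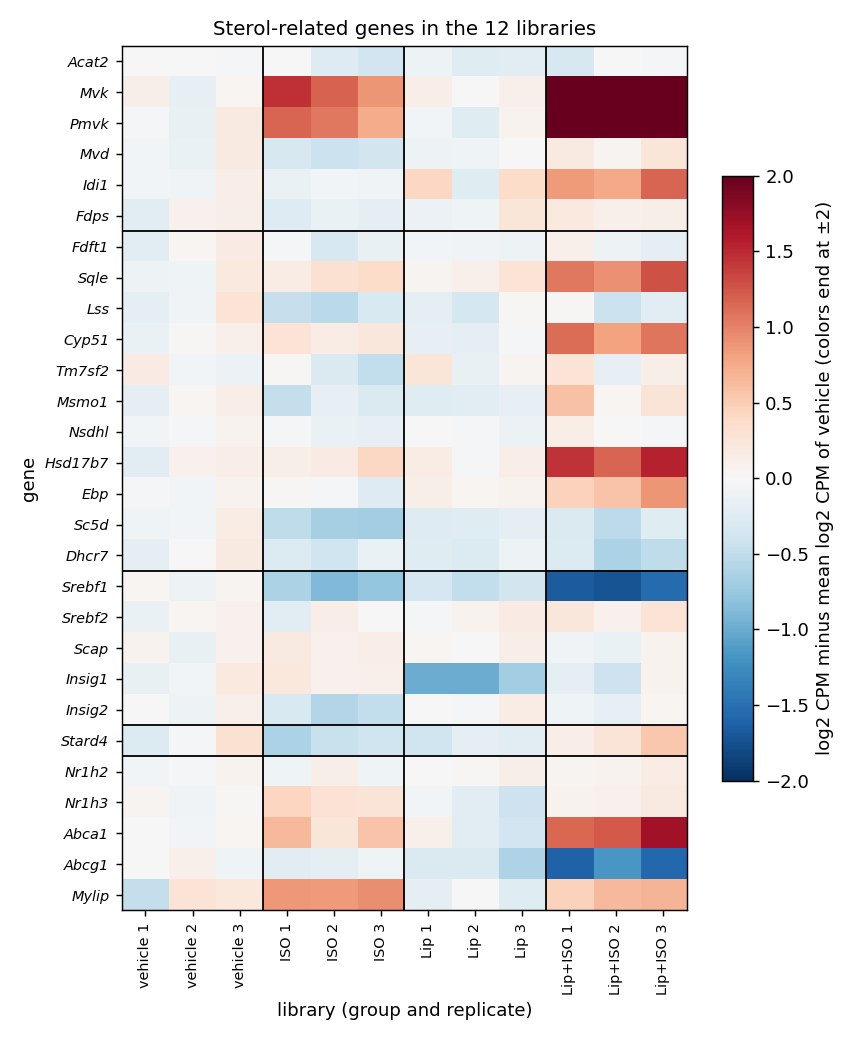
Expression of the 28 genes in each of the 12 libraries, as log2 CPM minus the mean log2 CPM of the 3 vehicle libraries, with red above and blue below that mean. Rows are grouped by role and columns by group. Mvk and Pmvk exceed the color limit of 2 in all 3 Lip+ISO libraries, and Srebf1 and Abcg1 are below vehicle in the same libraries.

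Without the inhibitors, ISO moved sterol-related genes in both directions. The 2 kinases of mevalonate rose about 2-fold, and so, by less, did 3 genes of the LXR group (Mylip, Abca1 and Nr1h3). Srebf1, Insig2, the sterol carrier Stard4 and the pathway genes Sc5d, Lss and Mvd fell. In counts, 5 of 28 rose and 6 fell, while among all tested genes 12.3% rose and 13.9% fell. Both counts of the set are thus near the background. The median log2 fold change of the set was -0.10, against 0.0018 over all tested genes. Scaled by library totals alone, the counts of the set were the same, while the share of higher among all called genes went from 47.07% to 36.95%.

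With the inhibitors present, most of the sterol-related genes that passed the test rose with ISO. Genes of 8 enzymes rose (Mvk, Pmvk, Idi1, Sqle, Cyp51, Msmo1, Hsd17b7 and Ebp), as did Insig1, Stard4, Abca1, Mylip and Nr1h3, while Srebf1 and Abcg1 fell. In Lip+ISO against Lip, 13 of 28 rose and 2 fell, while 11.5% of all tested genes rose and 15.8% fell. The median log2 fold change of the set was 0.17, against -0.0041 over all tested genes. When libraries were scaled by their totals alone, the median over all genes was -0.12 and the counts were 13 and 6, with Scap, Dhcr7, Sc5d and Insig2 added to those that fell. The share of higher among all called genes then went from 42.19% to 26.48%.

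Both responses can be set side by side, since they share no library. Mvk, Pmvk, Abca1, Mylip and Nr1h3 rose and Srebf1 fell in both, which is 6 genes with the same direction. Stard4 fell without and rose with the inhibitors. A further 8 genes passed the test with the inhibitors and not without, and 4 genes the other way round. These classes were not counted over all tested genes, so the counts describe the set and cannot be compared with a background. Passing in one response and not in the other does not show a difference, which the interaction tests.

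**Figure D2:**
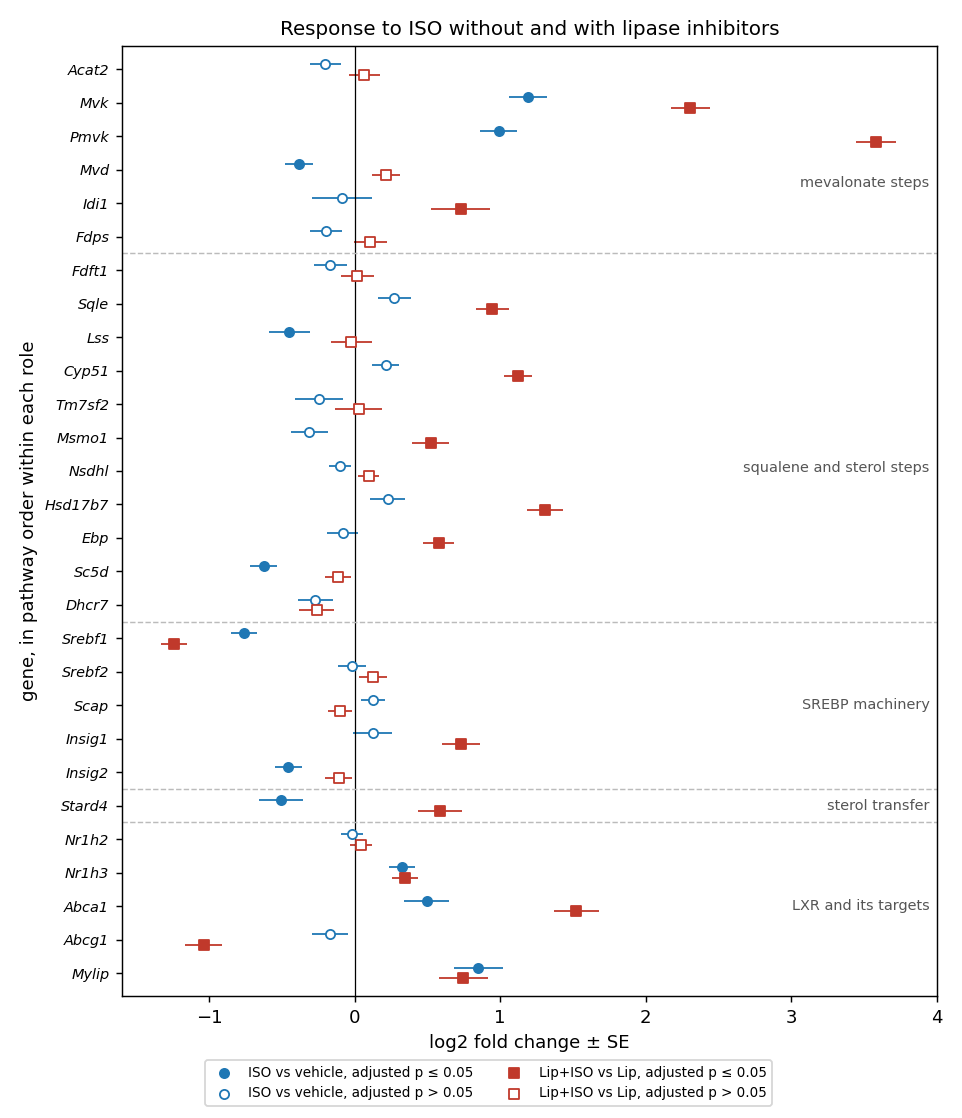
Log2 fold change of each gene in response to ISO, without (circles) and with (squares) the lipase inhibitors. Bars are SE, and filled symbols passed an adjusted p of 0.05. Pmvk lies at 0.99 without and 3.58 with the inhibitors, and Abcg1 at -0.17 and -1.04.

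In the mevalonate part of the pathway, Pmvk (NM_026784, mm9 chromosome 3, 89263040 to 89272931, plus strand), which encodes phosphomevalonate kinase, was at 38.5, 35.4 and 44.5 CPM in vehicle and at 87.7, 81.9 and 65.5 CPM in ISO. It was at 37.9, 33.4 and 41.2 CPM in Lip and at 404, 454 and 488 CPM in Lip+ISO. Vehicle and Lip overlapped, while all ISO libraries were above both and all Lip+ISO libraries were above every other library. The log2 fold change for ISO was 0.99 ± 0.127 (SE, edgeR adjusted p = 1.22e-04) without the inhibitors. With them it was 3.58 ± 0.137 (adjusted p = 2.79e-09), an 11.96-fold rise. The interaction was 2.59 ± 0.180 (edgeR adjusted p = 3.21e-05), which held in all 15 fits with 1 library, or 1 replicate number of every group, omitted.

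Mvk (NM_023556, chromosome 5, 114894315 to 114910599, plus strand) encodes mevalonate kinase, which acts just before Pmvk. Its levels were 38.2, 31.5 and 35.9 CPM in vehicle, 96.8, 79.8 and 65.0 in ISO, 38.3, 34.8 and 37.8 in Lip and 165, 185 and 200 CPM in Lip+ISO. As for Pmvk, the ISO libraries were above vehicle and Lip, and the Lip+ISO libraries were above all others. Mvk rose by a log2 fold change of 1.19 ± 0.131 (edgeR adjusted p = 3.25e-05) without and 2.31 ± 0.134 (adjusted p = 7.71e-08) with the inhibitors. The interaction of 1.12 ± 0.183 (edgeR adjusted p = 0.00855) had an adjusted p of up to 0.188 without replicate 2 or replicate 3 of every group.

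Mvd (NM_138656, chromosome 8, 124957496 to 124967322, minus strand) encodes the decarboxylase that makes isopentenyl diphosphate. It was at 28.0, 26.8 and 33.3 CPM in vehicle, 23.3, 21.7 and 22.7 in ISO, 27.2, 27.5 and 29.4 in Lip and 32.9, 30.2 and 34.6 CPM in Lip+ISO. The ISO libraries were the lowest, and Lip+ISO lay above Lip and overlapped with vehicle. It fell with ISO alone by 0.38 log2 units (SE 0.097, edgeR adjusted p = 0.0119) and was 0.53 ± 0.097 higher in Lip+ISO than in ISO (adjusted p = 0.00436). Its response to ISO with the inhibitors did not pass (0.22 ± 0.0961, edgeR adjusted p = 0.120). The fall with ISO was lost without replicate 2 or replicate 3 of every group or without vehicle replicate 3 (log2 fold changes from -0.45 to -0.29 over the 15 fits).

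Idi1 (NM_145360, chromosome 13, 8884852 to 8891642, plus strand), the isomerase of isopentenyl diphosphate, had low counts. Its levels were 3.41, 3.36 and 3.88 CPM in vehicle, 3.21, 3.41 and 3.37 in ISO, 4.71, 2.99 and 4.57 in Lip and 6.39, 6.004 and 7.94 CPM in Lip+ISO. All Lip+ISO libraries were above the rest. It was higher in Lip+ISO than in Lip (0.73 ± 0.201, edgeR adjusted p = 0.0164) and than in ISO (1.02 ± 0.204, adjusted p = 0.00739). The first of these passed in 10 of the 15 fits, and not without Lip replicate 2 (0.54), without Lip+ISO replicate 3, or without any one replicate number in every group. The second failed without replicate 1 and without replicate 3 of every group, with an adjusted p of up to 0.138.

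Acat2, the thiolase of the first step, and Fdps, the farnesyl diphosphate synthase, passed no test. Acat2 had means between 48.0 and 55.2 CPM and Fdps between 33.1 and 41.5 CPM over the 4 groups. For Fdps the approximate 95% interval of the log2 fold change between Lip+ISO and ISO was 0.11 to 0.55 (edgeR adjusted p = 0.0951). That of Acat2 was -0.13 to 0.30.

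In the steps from squalene to cholesterol, Hsd17b7, Cyp51, Sqle, Ebp and Msmo1 rose in Lip+ISO, whether set against Lip or against ISO. None of these 5 passed in ISO against vehicle, where Sc5d and Lss fell. The remaining 4 of the 11 genes (Fdft1, Tm7sf2, Nsdhl and Dhcr7) passed no test.

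Hsd17b7 (NM_010476, chromosome 1, 171879668 to 171899336, minus strand) encodes a ketosteroid reductase that acts in the removal of methyl groups from lanosterol. It was at 64.0, 78.7 and 82.1 CPM in vehicle, 80.9, 83.1 and 98.9 in ISO, 82.3, 73.4 and 81.8 in Lip and 203, 166 and 218 CPM in Lip+ISO. The first 3 groups overlapped, and the Lip+ISO libraries were above all of them. With the inhibitors it rose 2.47-fold with ISO (log2 1.31 ± 0.123, edgeR adjusted p = 5.47e-06), and the interaction was 1.08 ± 0.172 (adjusted p = 0.00731).

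Cyp51 (NM_020010, chromosome 5, 4080674 to 4104697, minus strand), the lanosterol demethylase, was at 96.9, 108 and 114 CPM in vehicle and at 128, 117 and 125 CPM in ISO. It was at 94.9, 94.1 and 104 CPM in Lip and at 229, 186 and 223 CPM in Lip+ISO, again above every other library. It rose 2.18-fold with ISO in the presence of the inhibitors (log2 1.12 ± 0.0943, edgeR adjusted p = 2.04e-06), and the interaction was 0.91 ± 0.132 (adjusted p = 0.00393). For Cyp51 and Hsd17b7 alike the interaction failed in 2 of the 15 fits, without replicate 2 and without replicate 3 of every group, with adjusted p-values of up to 0.123.

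Sqle (NM_009270, chromosome 15, 59146647 to 59162748, plus strand) encodes squalene epoxidase, a controlled step of the pathway. Its levels were 69.6, 70.3 and 85.1 CPM in vehicle, 82.8, 92.5 and 96.6 in ISO, 77.5, 80.3 and 90.01 in Lip and 156, 141 and 181 CPM in Lip+ISO. The Lip+ISO libraries were the highest and the other groups overlapped. Sqle rose by 0.95 ± 0.112 against Lip (edgeR adjusted p = 3.81e-05) and by 0.81 ± 0.112 against ISO (adjusted p = 6.68e-04), while the interaction missed the threshold (0.67 ± 0.158, adjusted p = 0.0559).

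Ebp (NM_007898, chromosome X, 7762457 to 7770638, minus strand), a sterol isomerase, was at 44.97, 43.9 and 48.1 CPM in vehicle, 46.5, 44.6 and 38.3 in ISO, 49.4, 46.8 and 47.9 in Lip and 63.1, 67.5 and 84.3 CPM in Lip+ISO. It rose by 0.58 ± 0.108 against Lip (edgeR adjusted p = 0.00140) and by 0.73 ± 0.108 against ISO (adjusted p = 0.00113). Its interaction was 0.66 ± 0.153 (edgeR adjusted p = 0.0529). The Lip+ISO libraries of Ebp were above all others. Ebp and Sqle lay just above the threshold of the interaction. By the Wald test of DESeq2 both interactions passed (adjusted p = 0.00433 and 0.00489).

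Msmo1 (NM_025436, chromosome 8, 67196942 to 67212375, minus strand), the methylsterol monooxygenase, was at 67.8, 78.9 and 84.5 CPM in vehicle, 55.2, 68.3 and 62.6 in ISO, 65.2, 65.3 and 68.2 in Lip and 115, 78.9 and 91.4 CPM in Lip+ISO. Lip+ISO was above ISO and Lip and overlapped with vehicle. It rose by 0.52 ± 0.129 against Lip (edgeR adjusted p = 0.00879), a call lost without replicate 3 of every group, and by 0.61 ± 0.129 against ISO (adjusted p = 0.0102). The latter moved between 0.39 and 0.81 over the 15 fits and failed without replicate 1 and without replicate 3 of every group.

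Sc5d (NM_172769, chromosome 9, 42062260 to 42072383, minus strand), a sterol desaturase, was at 125, 128 and 147 CPM in vehicle, 93.0, 83.6 and 81.9 in ISO, 111, 112 and 116 in Lip and 109, 92.2 and 113 CPM in Lip+ISO. All ISO libraries were below vehicle and Lip. It fell with ISO alone by 0.63 log2 units (SE 0.0926, edgeR adjusted p = 3.66e-04), and the change with the inhibitors present was -0.12 ± 0.0922 (adjusted p = 0.410). The interaction for Sc5d was 0.51 ± 0.130 (edgeR adjusted p = 0.0773), and it passed by the Wald test of DESeq2 (adjusted p = 0.0128).

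Lss (NM_146006, chromosome 10, 75994372 to 76016679, plus strand), lanosterol synthase, was at 51.4, 55.9 and 71.0 CPM in vehicle, 42.9, 40.4 and 47.5 in ISO, 51.2, 46.2 and 59.7 in Lip and 59.7, 43.9 and 51.1 CPM in Lip+ISO. The ISO libraries were below vehicle and overlapped with Lip and Lip+ISO. Its fall with ISO of 0.45 log2 units (SE 0.143, edgeR adjusted p = 0.0352) failed in 6 of the 15 fits, and was 0.31 without vehicle replicate 3. The other 5 were those without any one replicate number in every group, without ISO replicate 1 and without ISO replicate 2.

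The 4 genes of these steps that passed no test had group means of 26.2 to 29.5 CPM (Fdft1, squalene synthase), 11.4 to 14.3 CPM (Tm7sf2, a sterol reductase), 50.6 to 55.7 CPM (Nsdhl, a dehydrogenase of the demethylation steps) and 20.2 to 28.0 CPM (Dhcr7, the reductase of the last step). Dhcr7 had log2 fold changes for ISO of -0.27 ± 0.122 without and -0.26 ± 0.122 with the inhibitors (edgeR adjusted p = 0.120 and 0.141). The span of Fdft1 overlaps with that of Ctsb by 773 bp on the other strand, and that of Tm7sf2 with Vps51 by 9 bp, so some of their reads could belong to the neighbor.

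Of the SREBP machinery, Srebf1 and Insig1 moved most. Srebf1 (NM_011480, chromosome 11, 60012591 to 60034106, minus strand), which encodes SREBP-1, was at 315, 287 and 318 CPM in vehicle, 198, 166 and 179 in ISO, 243, 217 and 238 in Lip and 96.8, 92.3 and 106 CPM in Lip+ISO. None of the 4 groups overlapped with another. It fell with ISO by 0.76 log2 units without the inhibitors (SE 0.0874, edgeR adjusted p = 4.78e-05). With the inhibitors it fell by 1.24 (SE 0.0886, edgeR adjusted p = 4.85e-07), and the interaction of -0.48 ± 0.123 did not pass (adjusted p = 0.0778). The difference between Lip and vehicle, -0.40 ± 0.0870, did not pass either (edgeR adjusted p = 0.251). By the Wald test of DESeq2 the interaction and this difference both passed (adjusted p = 0.0234 and 0.0191). Scaled by library totals alone, the interaction passed as well (edgeR adjusted p = 0.00803). The span of Srebf1 overlaps with that of Rai1 on the other strand by 107 bp, and the counts join all its isoforms.

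Insig1 (NM_153526, chromosome 5, 28397952 to 28405202, plus strand), which encodes a protein that keeps the SREBP precursors in the endoplasmic reticulum and is itself an SREBP target, was at 713, 767 and 911 CPM in vehicle and 915, 839 and 848 CPM in ISO. In Lip it was at 398, 398 and 487 CPM, below every other library, and in Lip+ISO at 703, 595 and 831 CPM. Insig1 was thus the gene of the set that fell with the inhibitors alone, by 0.90 log2 units (SE 0.132, edgeR adjusted p = 0.0331), a 1.86-fold decrease. It rose with ISO in the presence of the inhibitors by 0.73 ± 0.131 (edgeR adjusted p = 0.00107), to levels that overlapped with vehicle. The interaction of 0.61 ± 0.185 did not pass (edgeR adjusted p = 0.143), while it passed by the Wald test of DESeq2 (adjusted p = 0.0345).

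In Lip against vehicle, 0 of 28 genes rose and 1 fell (Insig1), and among all tested genes 0.00738% rose and 0.0443% fell. At an unadjusted p under 0.05, 0 rose and 5 fell, and DESeq2 called 0 higher and 2 lower. The call of Insig1 failed in 12 of the 15 fits, with a log2 fold change between -1.01 and -0.79 and adjusted p-values of up to 0.701. The fits in which it passed were those without one of the 3 Lip+ISO libraries.

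Insig2 (NM_178082, chromosome 1, 123200930 to 123229166, minus strand), the related gene that is not under SREBP control, was at 126, 118 and 136 CPM in vehicle, 103, 84.6 and 89.6 in ISO, 128, 123 and 141 in Lip and 119, 113 and 130 CPM in Lip+ISO. The ISO libraries were below all others. It fell with ISO by 0.46 log2 units (SE 0.0926, edgeR adjusted p = 0.00312) and was 0.39 ± 0.0926 higher in Lip+ISO than in ISO (adjusted p = 0.0194). The latter failed without ISO replicate 2, ISO replicate 3 or Lip+ISO replicate 3 and without replicate 2 or 3 of every group, with an adjusted p of up to 0.186. Srebf2 (group means of 90.4 to 105 CPM) and Scap (86.7 to 97.8 CPM) passed no test, and for ISO without the inhibitors the 95% intervals were -0.21 to 0.17 for Srebf2 and -0.04 to 0.29 for Scap.

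Stard4 (NM_133774, chromosome 18, 33361075 to 33373470, minus strand), a carrier of cholesterol between membranes, was at 14.5, 17.0 and 21.6 CPM in vehicle, 11.3, 12.8 and 13.2 in ISO, 13.2, 15.2 and 14.8 in Lip and 19.1, 20.8 and 25.2 CPM in Lip+ISO. All ISO libraries were below vehicle, and all Lip+ISO libraries were above ISO and Lip. It fell with ISO by 0.51 log2 units (SE 0.153, edgeR adjusted p = 0.0273) and rose by 0.59 ± 0.151 with the inhibitors present (adjusted p = 0.0108). The fall failed in 5 of the 15 fits (without vehicle replicate 3, at -0.34, ISO replicate 1 or ISO replicate 2, and without replicate 2 or 3 of every group), and the rise failed in 2 (without replicate 2 or 3 of every group).

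**Figure D3:**
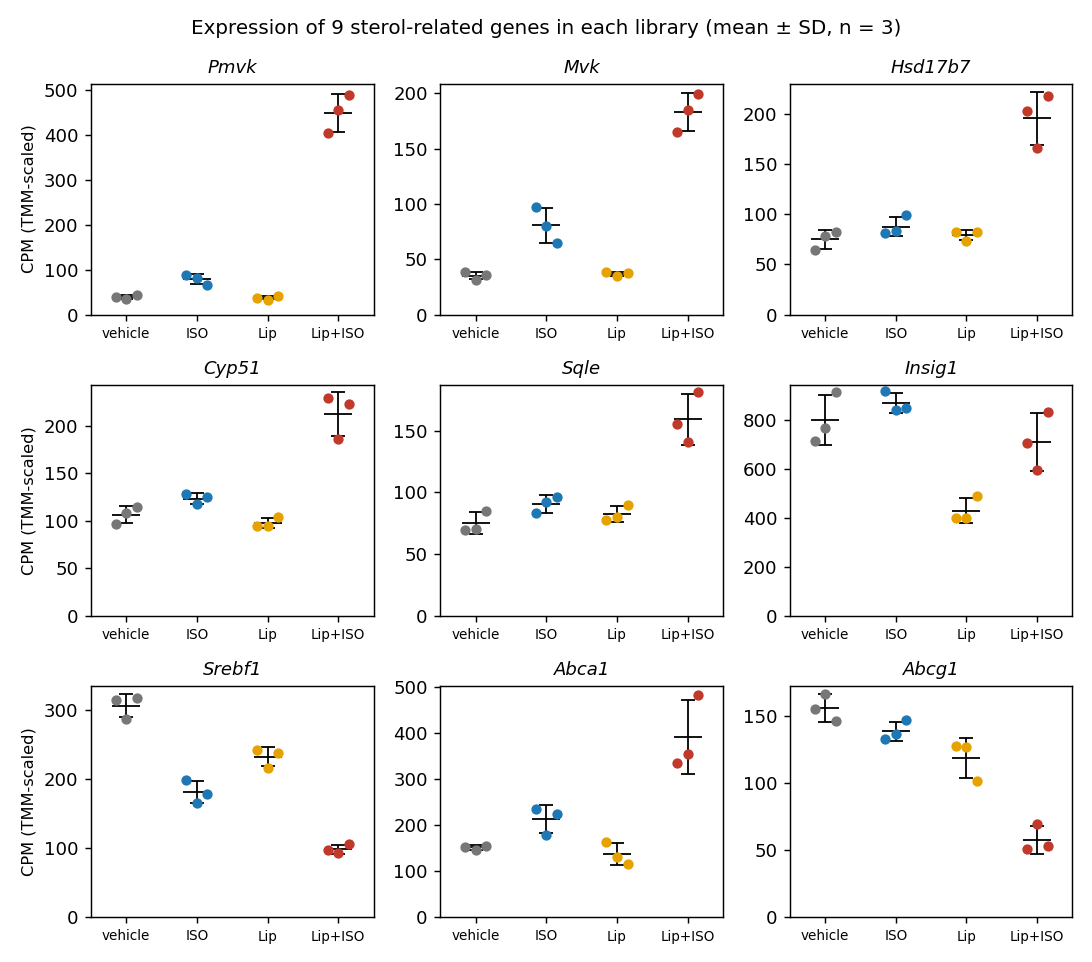
Levels of 9 genes in each library, as TMM-scaled CPM on axes that start at 0. Points are libraries, and lines with bars are the mean ± SD of the 3 libraries of a group. The Lip+ISO libraries are the highest for Pmvk, Mvk, Hsd17b7, Cyp51, Sqle and Abca1 and the lowest for Srebf1 and Abcg1, and the Lip libraries are the lowest for Insig1.

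Among the LXR genes, Abca1 and Abcg1, which encode exporters of cholesterol, went apart. Abca1 (NM_013454, chromosome 4, 53043661 to 53172767, minus strand) was at 152, 146 and 155 CPM in vehicle, 236, 179 and 224 in ISO, 163, 130 and 116 in Lip and 336, 354 and 485 CPM in Lip+ISO. All ISO libraries were above vehicle and Lip, and all Lip+ISO libraries were above ISO. Abca1 rose by 1.52 ± 0.158 with ISO in the presence of the inhibitors (edgeR adjusted p = 1.22e-05), which held in all 15 fits. Without them it rose by 0.49 ± 0.155 (edgeR adjusted p = 0.0328), which failed in 8 of the 15 fits. The 7 fits in which it passed left out ISO replicate 2 or a library of Lip or Lip+ISO.

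Abcg1 (NM_009593, chromosome 17, 31194639 to 31254926, plus strand) was at 155, 166 and 146 CPM in vehicle, 133, 136 and 147 in ISO, 127, 127 and 101 in Lip and 50.5, 69.5 and 52.5 CPM in Lip+ISO. The Lip+ISO libraries were below all others. With the inhibitors it fell 2.06-fold with ISO (log2 -1.04 ± 0.125, edgeR adjusted p = 4.24e-05), and without them the change was -0.17 ± 0.123 (adjusted p = 0.331). The interaction of -0.87 ± 0.174 (edgeR adjusted p = 0.0264) was opposite in sign to that of Abca1, 1.03 ± 0.219 (adjusted p = 0.0338).

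Mylip (NM_153789, chromosome 13, 45485111 to 45507309, plus strand), a ubiquitin ligase that degrades lipoprotein receptors, was at 7.20, 12.04 and 11.6 CPM in vehicle, 18.3, 18.0 and 19.1 in ISO, 8.73, 9.92 and 8.47 in Lip and 13.8, 15.8 and 15.97 CPM in Lip+ISO. Both groups with ISO were above both groups without it. It rose by 0.85 ± 0.167 without (edgeR adjusted p = 0.00262) and by 0.75 ± 0.168 with the inhibitors (adjusted p = 0.00487), and the latter failed without replicate 3 of every group (adjusted p = 0.0857). The 95% interval of their difference was -0.57 to 0.36.

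Nr1h3 (NM_001177730, chromosome 2, 91024218 to 91035273, minus strand), which encodes LXRα, was at 127, 117 and 125 CPM in vehicle, 165, 150 and 147 in ISO, 118, 104 and 92.6 in Lip and 129, 131 and 139 CPM in Lip+ISO. The ISO libraries were the highest, and Lip+ISO lay above vehicle and Lip. It rose with ISO by 0.32 ± 0.0887 without (edgeR adjusted p = 0.0175) and by 0.34 ± 0.0888 with the inhibitors (adjusted p = 0.0115), and the 95% interval of the difference was -0.23 to 0.26. The first call failed without vehicle replicate 2 or 3, ISO replicate 1 or replicate 2 of every group, and the second without Lip replicate 3 and without replicate 2 or 3 of every group. Nr1h2, which encodes LXRβ, had group means of 97.5 to 105 CPM and passed no test.

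Genes of the LXR group are also expressed by macrophages, and macrophage markers moved with ISO. Of 10 listed markers 9 had a row, and none of them was at 0 in a group. Their summed level was 53.5 to 67.9 CPM in vehicle, 112 to 168 in ISO, 57.9 to 62.7 in Lip and 73.1 to 124 CPM in Lip+ISO. In ISO against vehicle 6 of the 9 rose, in Lip+ISO against Lip 3 rose (12.3% and 11.5% of all tested genes did), and between Lip+ISO and ISO 0 passed by edgeR (DESeq2 called 2 lower, and 4 were lower at an unadjusted p under 0.05). The summed levels of ISO and Lip+ISO overlapped. Between Lip+ISO and ISO, the 9 markers had a median log2 difference of -0.44, with a range of -0.67 to -0.03. In the same comparison Abca1 was higher and Abcg1 lower. The part of macrophages in the levels of Abca1, Abcg1, Mylip and Nr1h3 was not tested. Summed endothelial markers were at 81.8 to 157 CPM in vehicle, 143 to 289 in ISO, 43.7 to 146 in Lip and 64.1 to 185 in Lip+ISO, with 1 of 7 called in ISO against vehicle, higher there, and 0 in Lip+ISO against Lip or ISO (1 gene in each at an unadjusted p under 0.05, higher and lower in turn, and 1 and 0 by DESeq2). For fibroblast or progenitor markers the ranges were 318 to 565, 633 to 836, 436 to 444 and 378 to 524 CPM. Of these 7 genes, 3 rose in ISO against vehicle. The same 3 (Pdgfra, Col3a1 and Col1a1) were called lower when Lip+ISO was compared with ISO, at log2 differences of -1.03, -0.84 and -0.73 (edgeR adjusted p = 0.0152, 0.0131 and 0.0237). At an unadjusted p under 0.05, 6 were higher in the first and 4 lower in the second comparison, and by DESeq2 4 and 3. Of all tested genes, 12.3% rose in the first and 4.59% were lower in the second. For mesothelial markers the ranges were 21.0 to 46.8, 55.4 to 65.9, 12.8 to 54.7 and 37.3 to 46.2 CPM. Of these, 1 of 5 was called higher both in ISO against vehicle and in Lip+ISO against Lip. None of these markers was at 0 in a group, and the part of these cells in any result was not tested.

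Under ISO, the inhibitors raised more of the set than they lowered. In Lip+ISO against ISO, 12 of 28 genes were higher and 2 lower, while 4.36% of all tested genes were higher and 4.59% lower. In the same comparison 3 of the 7 fibroblast or progenitor markers named above were lower, with a median log2 difference of -0.79 over the 7, and their part in these counts was not tested. The higher genes were Pmvk, Mvk, Hsd17b7, Idi1, Abca1, Sqle, Stard4, Cyp51, Ebp, Msmo1, Mvd and Insig2, and the lower ones were Abcg1 and Srebf1. By role, 4 of the 6 mevalonate genes, 5 of the 11 squalene and sterol genes, 1 of the 5 genes of the SREBP machinery, Stard4 and 1 of the 5 LXR genes were higher. Of the higher genes Pmvk differed most (log2 2.52 ± 0.131, edgeR adjusted p = 2.80e-07), then Mvk (1.19 ± 0.129, adjusted p = 1.04e-04) and Hsd17b7 (1.16 ± 0.123, adjusted p = 8.53e-05). Abcg1 was lower by a log2 difference of -1.27 ± 0.125 (edgeR adjusted p = 5.50e-05) and Srebf1 by -0.88 ± 0.0881 (adjusted p = 5.50e-05). Stard4 (0.80 ± 0.152, edgeR adjusted p = 0.00556) and Abca1 (0.88 ± 0.155, adjusted p = 0.00356) failed without replicate 2 of every group, as did Mvd.

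**Figure D4:**
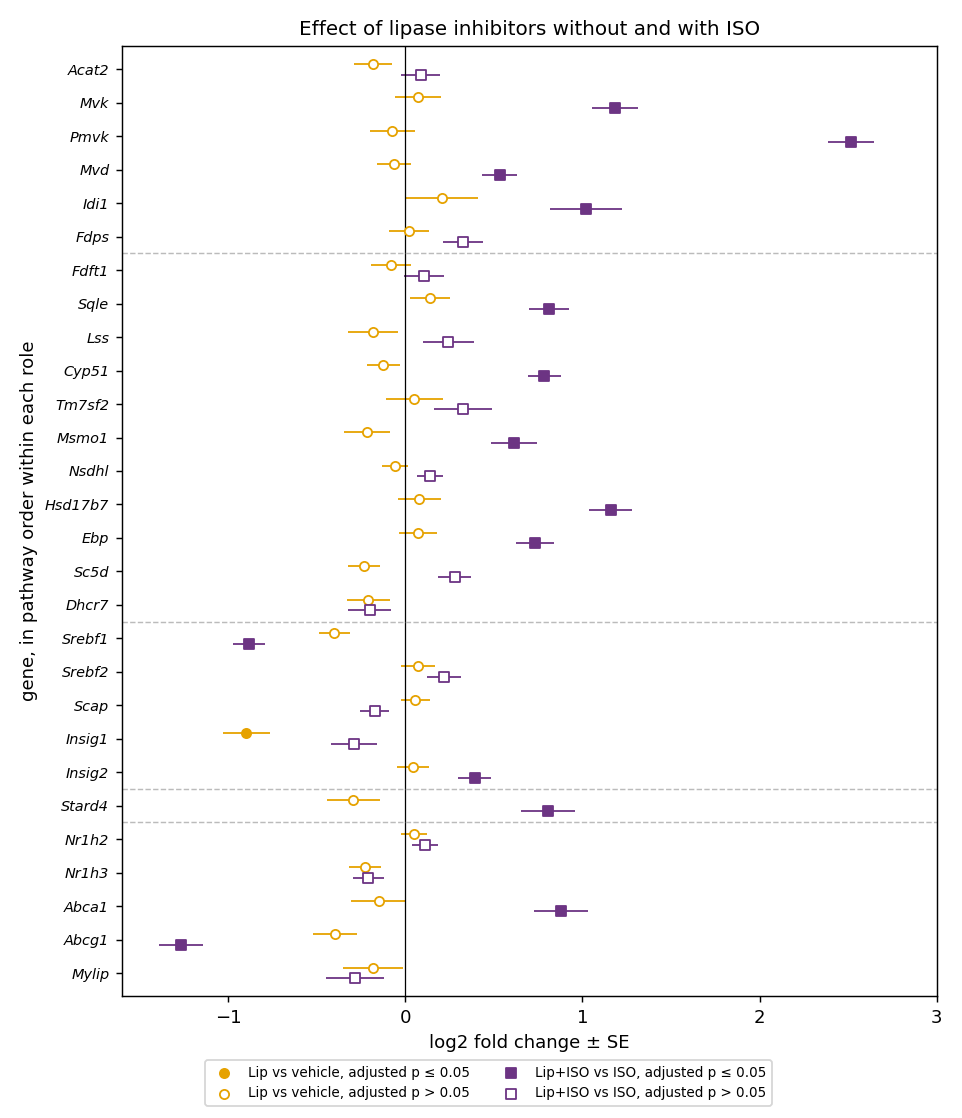
Log2 fold change of each gene with the lipase inhibitors, without (circles, Lip against vehicle) and with ISO (squares, Lip+ISO against ISO). Bars are SE, and filled symbols passed an adjusted p of 0.05. Insig1 at -0.90 is the filled circle, and the filled squares run from -1.27 for Abcg1 to 2.52 for Pmvk.

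The difference between both responses was positive for 8 of 28 genes and negative for 1, while 0.901% of all tested genes had a positive and 0.724% a negative interaction. The positive ones were Pmvk, Mvk, Stard4, Hsd17b7, Abca1, Cyp51, Msmo1 and Mvd. Stard4 reached 1.10 ± 0.215 (edgeR adjusted p = 0.0234), Msmo1 0.83 ± 0.183 (adjusted p = 0.0394) and Mvd 0.60 ± 0.137 (adjusted p = 0.0495). The median interaction of the 28 genes was 0.39, and that of the 11 squalene and sterol genes 0.51, against -0.017 over all tested genes. Scaled by library totals alone, the counts were 7 and 2. By DESeq2 they were 12 and 2, and 324 and 235 over all tested genes. With the replicate number as a term of the edgeR fit they were 12 and 2, and 427 and 471 over all tested genes. The counts also depended on single libraries. They were 4 positive without vehicle replicate 3, ISO replicate 2, ISO replicate 3 or Lip replicate 2, and 5 without ISO replicate 1, Lip replicate 1, Lip replicate 3, Lip+ISO replicate 3 or replicate 1 of every group. Without replicate 2 or without replicate 3 of every group 1 gene was left, which was Pmvk. These fits hold fewer libraries in each group. Over all tested genes, the positive interactions went from 122 to 6 and the negative from 98 to 9 without replicate 2 of every group. Abca1 and the negative interaction of Abcg1 each failed in 10 of the 15 fits, Stard4 in 9, Msmo1 in 12 and Mvd in 13. Of the cell type markers, 0 passed the interaction by edgeR. Their medians were -0.73 (fibroblast or progenitor), -0.48 (macrophage), -0.38 (endothelial), -0.19 (mesothelial) and 0.19 (adipocyte). At an unadjusted p under 0.05, 3 fibroblast or progenitor markers and 1 macrophage marker were negative, and by DESeq2 2 and 0. The part of these cells in the interactions was not tested.

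Counts of the single responses also moved with the libraries. In ISO against vehicle, 3 genes rose without vehicle replicate 2, vehicle replicate 3, ISO replicate 1 or replicate 2 of every group, and 3 fell without vehicle replicate 3, replicate 2 or replicate 3 of every group. In Lip+ISO against Lip, 8 rose without replicate 3 of every group and at least 10 in the other 14 fits.

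Of the neighboring pathways, 4 lists were examined, which hold the SREBP proteases and the factors that turn over INSIG (9 genes), sterol handling (11), the isoprenoid branch (7) and the fatty acid side of SREBP-1 and LXR (12). All of their genes were tested. For SREBP processing and INSIG turnover, 0 rose and 4 fell both in ISO against vehicle and in Lip+ISO against Lip (0 and 1 rose at an unadjusted p under 0.05, and 0 and 1 by DESeq2), where 13.9% and 15.8% of all tested genes fell. The median log2 fold changes of these 9 genes were -0.26 and -0.23. Rnf139, a ubiquitin ligase of the endoplasmic reticulum, had means of 51.6 ± 2.71 CPM in vehicle and 35.0 ± 2.06 in ISO (SD, n = 3) and fell by 0.56 log2 units without the inhibitors (SE 0.0959, edgeR adjusted p = 0.00101). With them it fell by 0.47 (SE 0.0957, edgeR adjusted p = 0.00273), which failed without replicate 1 or 2 of every group. Erlin1, which takes part in the breakdown of membrane proteins, fell from 31.2 ± 2.28 to 20.9 ± 1.96 CPM with ISO in the presence of the inhibitors (log2 -0.57 ± 0.114, adjusted p = 0.00214).

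In sterol handling, 2 of 11 genes rose and 0 fell in ISO against vehicle (1 lower at an unadjusted p under 0.05 and 0 by DESeq2), and 1 rose and 1 fell in Lip+ISO against Lip, with medians of 0.26 and 0.08. These counts are near the shares of all tested genes, of which 12.3% rose with ISO alone, and 11.5% rose and 15.8% fell with the inhibitors present. Between Lip+ISO and ISO 2 were lower, against 4.59% of all tested genes, and 0 higher, the latter also by DESeq2 and without adjustment. Soat1, which esterifies cholesterol, had means of 22.7 ± 7.45 CPM in vehicle, 47.7 ± 3.75 in ISO, 23.6 ± 3.32 in Lip and 26.2 ± 5.88 in Lip+ISO. It rose with ISO by 1.08 ± 0.212 (edgeR adjusted p = 0.00265) and was lower in Lip+ISO than in ISO (-0.87 ± 0.211, adjusted p = 0.0224). The rise held in all 15 fits and the difference between Lip+ISO and ISO in 10. Nceh1, which hydrolyzes cholesterol esters, rose with ISO by 1.02 ± 0.269 (edgeR adjusted p = 0.0143, in 10 of the 15 fits). Both are also expressed by macrophages, whose markers were higher in ISO as given above, and the part of these cells was not tested. Scarb1, a lipoprotein receptor, rose in Lip+ISO against Lip by 0.36 ± 0.125 (edgeR adjusted p = 0.0464), which held in 4 of the 15 fits.

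On the fatty acid side, 2 of 12 genes fell and 0 rose in ISO against vehicle (1 higher at an unadjusted p under 0.05 and 0 by DESeq2), 1 rose in Lip+ISO against Lip, and 2 were higher in Lip+ISO than in ISO. Of all tested genes 13.9% fell in the first, 11.5% rose in the second and 4.36% were higher in the third comparison, so the first 2 counts are near the background. The medians for ISO were -0.16 without and 0.14 with the inhibitors. Fasn and Acaca, the main enzymes of fatty acid synthesis, fell with ISO alone. Fasn went from 753 ± 166 to 446 ± 53.1 CPM (log2 -0.76 ± 0.234, edgeR adjusted p = 0.0306) and Acaca from 78.2 ± 6.61 to 51.1 ± 5.48 CPM (-0.61 ± 0.152, adjusted p = 0.0103). Acly, which makes cytosolic acetyl-CoA, rose in Lip+ISO against Lip (0.42 ± 0.113, edgeR adjusted p = 0.0142) and was higher than in ISO (0.45 ± 0.113, adjusted p = 0.0279). Elovl6, a fatty acid elongase, was 0.80 ± 0.212 higher in Lip+ISO than in ISO (edgeR adjusted p = 0.0350). Of the 15 fits, Fasn failed in 5, Acaca in 2, Acly in 3 against Lip and 7 against ISO, and Elovl6 in 6. In the isoprenoid branch (medians -0.07 and 0.08) 0 of 7 genes passed in any comparison, by edgeR or DESeq2, with 1 gene at an unadjusted p under 0.05 in Lip+ISO against Lip. In Lip against vehicle 0 genes of the 4 lists passed by either tool, and 0 at an unadjusted p under 0.05. For the interaction 0 passed by edgeR, with 2 positive and 2 negative at an unadjusted p under 0.05 and 1 negative by DESeq2.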

How the data were processed

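RNA sequencing counts of 12 cultures of mouse white adipocytes in 4 groups of 3 were analysed, with groups and replicate numbers taken from the sample titles. The values deposited are raw counts, 1 row per gene and 1 column per library. Per the labels and the study's methods, the authors aligned reads to mm9 with STAR 2.4.2a and counted them per RefSeq gene with HOMER, keeping 1 read per position and length, and iRNA-seq. Whether the counting used strand is not given in the sources used here, so genes that overlap on either strand are reported as uncertain. Deposited transcript spans and counted lengths were read as lengths. Starts are counted from 0 there and from 1 in the text. Of 27 genes of the set matched to an annotation of mm9, 0 starts were equal as deposited and 14 after adding 1.

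Counts were modelled with edgeR 4.0.16 (R 4.3.3). After filterByExpr, 13543 of 20295 genes remained, and TMM set the library scaling. One quasi-likelihood fit covered the 12 libraries, with the 4 group means as its terms and no replicate term (common biological coefficient of variation 0.163). The 5 contrasts were tested with the two-sided quasi-likelihood F-test, and p-values were adjusted by Benjamini-Hochberg over all tested genes. Calls needed an adjusted p of 0.05 or less and no minimum fold change. CPM are scaled by TMM, RPKM divide them by the counted length, and 95% intervals are from the SE of the log2 fold change by the normal distribution. These intervals are approximate, and narrower than intervals matched to the F-test would be. The comparisons share groups, so they are not independent, except that ISO against vehicle and Lip+ISO against Lip have no library in common. The script was tested on simulated data.

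Alternatives were library totals, the size factors of DESeq2, no filter, the Wald test of DESeq2 1.42.0, the replicate number as a block, fits of the 2 compared groups alone, a minimum log2 fold change of 1, and 15 fits without 1 library or 1 replicate number. All genes of the set are named, and of the other pathway lists at most 4 called genes per contrast, those with the largest fold change. The set, the pathway lists and the marker lists were chosen with earlier results of these data known. The Lip inhibitors are named ATGL and HSL inhibitors after the study's methods. Its legend for white adipocytes names another stimulus, while the titles say ISO, which was used here.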

Additional observations from a re-analysis of the deposited data

Results flagged for a closer look

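For 9 genes of the set, lipase inhibitors changed the response to ISO by the interaction test of edgeR (adjusted p at or under 0.05, n = 3 libraries per group). The difference (log2, with minus without) was 2.59 for Pmvk, 1.12 for Mvk, 1.10 for Stard4, 1.08 for Hsd17b7, 1.03 for Abca1, 0.91 for Cyp51, 0.83 for Msmo1, 0.60 for Mvd and -0.87 for Abcg1. The shares of all tested genes called were 0.901% positive and 0.724% negative. Of these genes, Pmvk passed in all 15 fits that left out 1 library or replicate number. Mvk, Hsd17b7 and Cyp51 failed in 2 of these fits, Stard4 in 9, Abca1 and Abcg1 in 10, Msmo1 in 12 and Mvd in 13. With 3 libraries in each group, single libraries were not examined as outliers.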

How the results depend on the processing

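None of the 50 called changes of single genes was reversed in any alternative, and 25 of them passed in all 15 fits that left out 1 library or replicate number. Over those 15 fits, the counts of genes called higher and lower ran from 3 to 5 and 3 to 7 in ISO against vehicle, 8 to 13 and 2 in Lip+ISO against Lip, 0 and 0 to 1 in Lip against vehicle, 8 to 13 and 2 in Lip+ISO against ISO, and 1 to 10 and 0 to 1 for the interaction.

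With a minimum log2 fold change of 1, counts were 1 and 0 in ISO against vehicle, 5 and 2 in Lip+ISO against Lip, 0 and 0 in Lip against vehicle, 4 and 1 in Lip+ISO against ISO, and 5 and 0 for the interaction. Over all genes they were then 769 and 244, 568 and 428, 0 and 3, 107 and 162, and 55 and 46. Library totals gave 6 lower in Lip+ISO against Lip and 2 negative interactions, and Msmo1 and Mvd then missed the interaction (adjusted p = 0.0839 and 0.0664). Ebp (edgeR adjusted p = 0.0457, positive) and Srebf1 (0.00803, negative) then passed it. DESeq2 gave 2 lower in Lip against vehicle, with Srebf1 added (Wald test, adjusted p = 0.0191), and 12 positive and 2 negative interactions. Added to the positive ones were Ebp (adjusted p = 0.00433), Sqle (0.00489), Sc5d (0.0128) and Insig1 (0.0345), and to the negative ones Srebf1 (0.0234). Over all genes DESeq2 gave 19 and 33 in Lip against vehicle and 324 and 235 for the interaction. With no filter, Mvd missed the interaction (adjusted p = 0.0700) and Sqle passed it (edgeR adjusted p = 0.0485). In that fit, 3 and 11 of all genes passed in Lip against vehicle. Fitting the 2 compared groups alone gave 0 lower in Lip against vehicle (Insig1, adjusted p = 0.0578), with 2 of all genes higher, and 349 and 395 of all genes in Lip+ISO against ISO. There Insig2 missed the threshold (adjusted p = 0.0599), as did Idi1 in Lip+ISO against Lip (adjusted p = 0.0590). The cause of these moves was not tested.

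With the replicate number as a block, the interaction had 12 positive and 2 negative genes. Lip against vehicle then had 2 lower, Insig1 (edgeR adjusted p = 0.00334) and Srebf1 (0.0251). The interactions that passed with the block and not without it were those of Sqle (adjusted p = 0.00238), Insig1 (0.0221), Sc5d (0.0225) and Ebp (0.0247), positive, and of Srebf1 (0.00864), negative. The other counts under the block were 6 and 6, 14 and 2, and 14 and 3, in ISO against vehicle, Lip+ISO against Lip and Lip+ISO against ISO, where Sqle (0.00722) in the first, Mvd (0.0414) in the second and Fdps (0.0340), Sc5d (0.0330) and, lower, Insig1 (0.0398) in the third were added. No call of the set was lost with the block. Over all genes, the block gave 2552 higher and 2660 lower in ISO against vehicle, and 2093 and 2726 in Lip+ISO against Lip. It gave 6 and 21 in Lip against vehicle, 1149 and 1458 in Lip+ISO against ISO and 427 and 471 for the interaction. Deviations from the group means correlated above 0.1 in 17 of 18 pairs of same-numbered libraries (0.0373 to 0.369), and all 12 libraries correlated best with their own number. This is a hint from the data, since the labels do not say what a number marks, so the numbers were not taken as pairs. Counts per gene limit the precision most for Idi1 and Mylip, and 3 libraries per group leave changes that are small against their SE undetected.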
